A study of Homo sapiens with 4 samples.

Results

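The HOX genes of clusters A to D are described here by the peaks of GapR-GFP that lay in or near them in HCT116 cells, a human colorectal carcinoma line. The members were the listed HOXA, HOXB, HOXC and HOXD genes of the RefSeq table, without readthrough genes and antisense RNAs, 38 of 20037 protein-coding genes. A peak was counted for a gene when its summit lay in the gene or within 5 kb of either end, and 34 of 31815 peaks found in both WT libraries were behind these genes. Positions are on the human build hg38, with genes from the RefSeq table of GRCh38.p14. Cluster A lies on chromosome 7 (10 members), cluster B on chromosome 17 (10 members), cluster C on chromosome 12 (9 members) and cluster D on chromosome 2 (9 members).

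GapR is a bacterial protein that binds overtwisted DNA, and fused to GFP it serves as a reporter of positive supercoiling. In CUT&RUN, an antibody, here against GFP, directs a nuclease to the tagged protein and the released DNA fragments are sequenced. The series holds 4 samples, WT replicates 1 and 2 and MT replicates 1 and 2, all in HCT116 cells that expressed GapR and were held in G1 with 2 µM palbociclib, an inhibitor of the cyclin D kinases, for 28 h. The labels disagree in places. The genotype entries give wildtype for WT and TOP2A + TOP2B double knockout for MT, whereas the series text speaks of wild-type and mutant GapR fused to GFP, and the same text calls the cells asynchronous. Knockout of both type II topoisomerases and mutation of GapR therefore cannot be told apart as the meaning of MT. Each of the 2 peak lists comes from 1 WT library called against MT replicate 1, so both lists share their control, no test between groups was possible, and MT replicate 2 was not analysed here. The labels do not say whether replicates were separate cultures, so their spread may be technical. After duplicate filtering, WT replicate 1 had 21774260 fragments, WT replicate 2 had 27443146 and MT replicate 1 had 23356540, and the lists held 81404 peaks (WT replicate 1) and 42656 peaks (WT replicate 2). No RNA was measured, so neither the cell type nor the activity of any HOX gene could be checked from these files.

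HOX genes encode homeodomain transcription factors that set position along the head-to-tail axis of the embryo. Within a cluster all genes are transcribed in the same direction, and their order along the chromosome follows the order of their expression domains, from anterior genes at the 3′ edge to posterior genes at the 5′ edge. Polycomb group proteins keep the clusters silent and Trithorax group proteins keep them active, and many adult epithelia and tumours retain expression of a subset. Genes at the same place in different clusters are paralogs and carry the same number. Paralogs 1 to 3 are called anterior here, 4 to 8 central and 9 to 13 posterior.

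Sequence is shown first for 4 promoters, each 300 bases long, from 250 bases before to 50 bases from the annotated start on, as RefSeq gives them for GRCh38.p14, 5′ to 3′ on the strand of the gene. Capitals mark CpG dinucleotides. HOXC4 (plus strand, chr12:54016638-54016937) and HOXA3 (minus strand, chr7:27152534-27152833) are shown because a peak found in both WT libraries covered the whole window with its extent in WT replicate 1. In WT replicate 2 the peak at HOXA3 ended inside the window, at base 27152748. HOXD13 (plus strand, chr2:176092471-176092770), a posterior gene, and HOXB1 (minus strand, chr17:48530962-48531261), an anterior gene, are shown because no such peak touched theirs.
HOXC4: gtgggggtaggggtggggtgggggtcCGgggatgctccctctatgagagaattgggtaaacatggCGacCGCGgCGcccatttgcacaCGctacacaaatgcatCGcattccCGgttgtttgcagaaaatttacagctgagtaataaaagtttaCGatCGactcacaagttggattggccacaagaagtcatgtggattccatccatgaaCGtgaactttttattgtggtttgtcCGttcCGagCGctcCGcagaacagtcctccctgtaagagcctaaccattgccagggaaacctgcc
HOXA3: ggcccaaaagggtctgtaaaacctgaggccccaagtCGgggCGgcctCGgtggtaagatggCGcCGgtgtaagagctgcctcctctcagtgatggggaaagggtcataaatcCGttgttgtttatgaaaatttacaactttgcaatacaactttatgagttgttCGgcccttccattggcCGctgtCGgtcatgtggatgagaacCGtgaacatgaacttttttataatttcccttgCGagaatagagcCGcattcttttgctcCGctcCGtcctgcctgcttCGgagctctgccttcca
HOXD13: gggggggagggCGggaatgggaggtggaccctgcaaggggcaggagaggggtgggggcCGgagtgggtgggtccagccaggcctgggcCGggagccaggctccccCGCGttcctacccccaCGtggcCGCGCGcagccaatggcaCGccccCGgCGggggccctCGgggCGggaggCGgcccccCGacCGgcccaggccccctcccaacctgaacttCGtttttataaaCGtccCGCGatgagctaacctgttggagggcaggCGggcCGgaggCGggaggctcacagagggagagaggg
HOXB1: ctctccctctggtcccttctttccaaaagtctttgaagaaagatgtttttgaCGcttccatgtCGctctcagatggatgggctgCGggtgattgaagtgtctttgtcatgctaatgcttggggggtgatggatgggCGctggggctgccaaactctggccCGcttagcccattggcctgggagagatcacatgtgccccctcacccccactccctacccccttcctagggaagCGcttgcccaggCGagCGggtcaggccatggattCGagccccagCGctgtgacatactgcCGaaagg

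These windows differed in base composition. HOXC4 and HOXA3 each held 15 CpG, with a GC content of 51.7% and 50.7%. HOXD13 held 24 CpG at 74.0% GC, and HOXB1 held 11 CpG at 58.0% GC. Over the 26 HOX windows of the promoter table, which come from 20 of the 38 members, the difference ran the other way. In the 13 windows that a shared peak overlapped with its extent in WT replicate 1, the median GC content was 60.7%. It was 55.0% in the other 13.

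A peak of WT replicate 1 is called shared where 1 bp or more of it lay under a peak of WT replicate 2, and it is placed at its WT replicate 1 summit. Where a pair of values follows without names, the first belongs to WT replicate 1 and the second to WT replicate 2. Shared summits lay at 28 of the 38 HOX genes (73.7%), against 66.6% of all protein-coding genes. HOX genes were shorter, with a median length of 3786 bp against 24115 bp for all protein-coding genes. In the length range of the HOX genes, 1677 to 45574 bp, 63.4% of protein-coding genes had a shared summit. By library, 32 HOX genes had a summit of WT replicate 1, against 77.9% of all protein-coding genes, and 29 had one of WT replicate 2, against 68.3%. The gene count thus stood near the background. How densely the peaks lay differed from it more, mostly in clusters A and B.

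The 4 clusters differed widely among themselves. In cluster A, 10 of 10 members had a shared summit. In cluster B the count was 8 of 10, in cluster C 5 of 9 and in cluster D 5 of 9. Measured from the first to the last base of the listed members, cluster A spanned 99.7 kb with 11 shared summits, cluster B 200.2 kb with 16, cluster C 117.2 kb with 5 and cluster D 103.4 kb with 4. This came to 11.0, 7.99, 4.27 and 3.87 shared summits per 100 kb in clusters A, B, C and D. Over the 4 clusters together the density was 6.92 per 100 kb, against 1.42 per 100 kb over all protein-coding gene spans.

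Peaks covered 31.7% of cluster A, 13.4% of cluster B, 6.35% of cluster C and 3.97% of cluster D when shared peaks were counted with their extent in WT replicate 1. Each library gave the same order of clusters. In WT replicate 1 alone the shares were 32.8%, 14.7%, 8.37% and 6.29% for clusters A to D, and in WT replicate 2 alone 20.8%, 10.0%, 5.03% and 2.39%. The pooled share was 13.5% for shared peaks (15.1% and 9.44% in the single lists), against 1.98% of protein-coding gene spans (3.26% and 1.35%). The pooled density of summits differed less between the libraries, at 10.9 per 100 kb in WT replicate 1 and at 9.60 in WT replicate 2. Over protein-coding gene spans it differed more, at 4.16 in WT replicate 1 and at 1.96 in WT replicate 2.

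**Figure D1:**
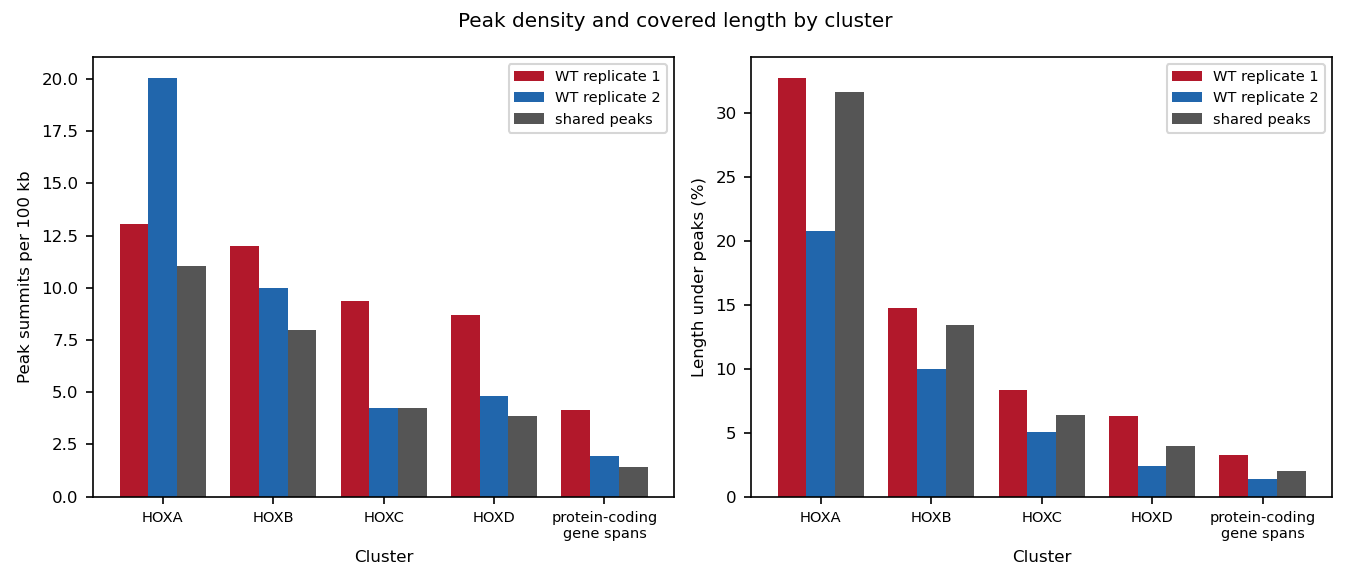
Peak summits per 100 kb (left) and percent of length under peaks (right) for each HOX cluster and for all protein-coding gene spans, with a bar for WT replicate 1, WT replicate 2 and shared peaks. Cluster A stood highest in all 3 sets, with 31.7% of its length under shared peaks, and cluster D lowest in covered length, with 3.97%.

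Gene spans of protein-coding genes include long introns, so density was also taken over each gene with 5 kb on either side, a comparison chosen after the values were seen. HOX windows held 7.52 shared summits per 100 kb, against 3.44 for protein-coding genes in the same length range and 1.67 for all protein-coding genes. Windows of cluster A held 11.8 per 100 kb, and those of cluster B held 9.99. Windows of clusters C and D held 4.06 and 4.04, close to the value of genes in that range. The range runs from the shortest to the longest HOX gene, so genes in it were not matched to the HOX genes in length. In WT replicate 1 alone, windows of clusters A, B, C and D held 14.6, 15.8, 8.94 and 8.08 summits per 100 kb, against 6.60 for genes in that range. In WT replicate 2 alone they held 20.05, 13.3, 4.06 and 5.05, against 4.37. For shared summits the excess over genes in that range thus lay mostly in clusters A and B, while in WT replicate 1 all 4 clusters stood above them. Clustered protocadherins, another family of tandem genes, were measured over their whole span and not over gene windows. They had 0.963 shared summits per 100 kb with 1.15% covered, against 6.92 and 13.5% over the HOX cluster spans.

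**Figure D2:**
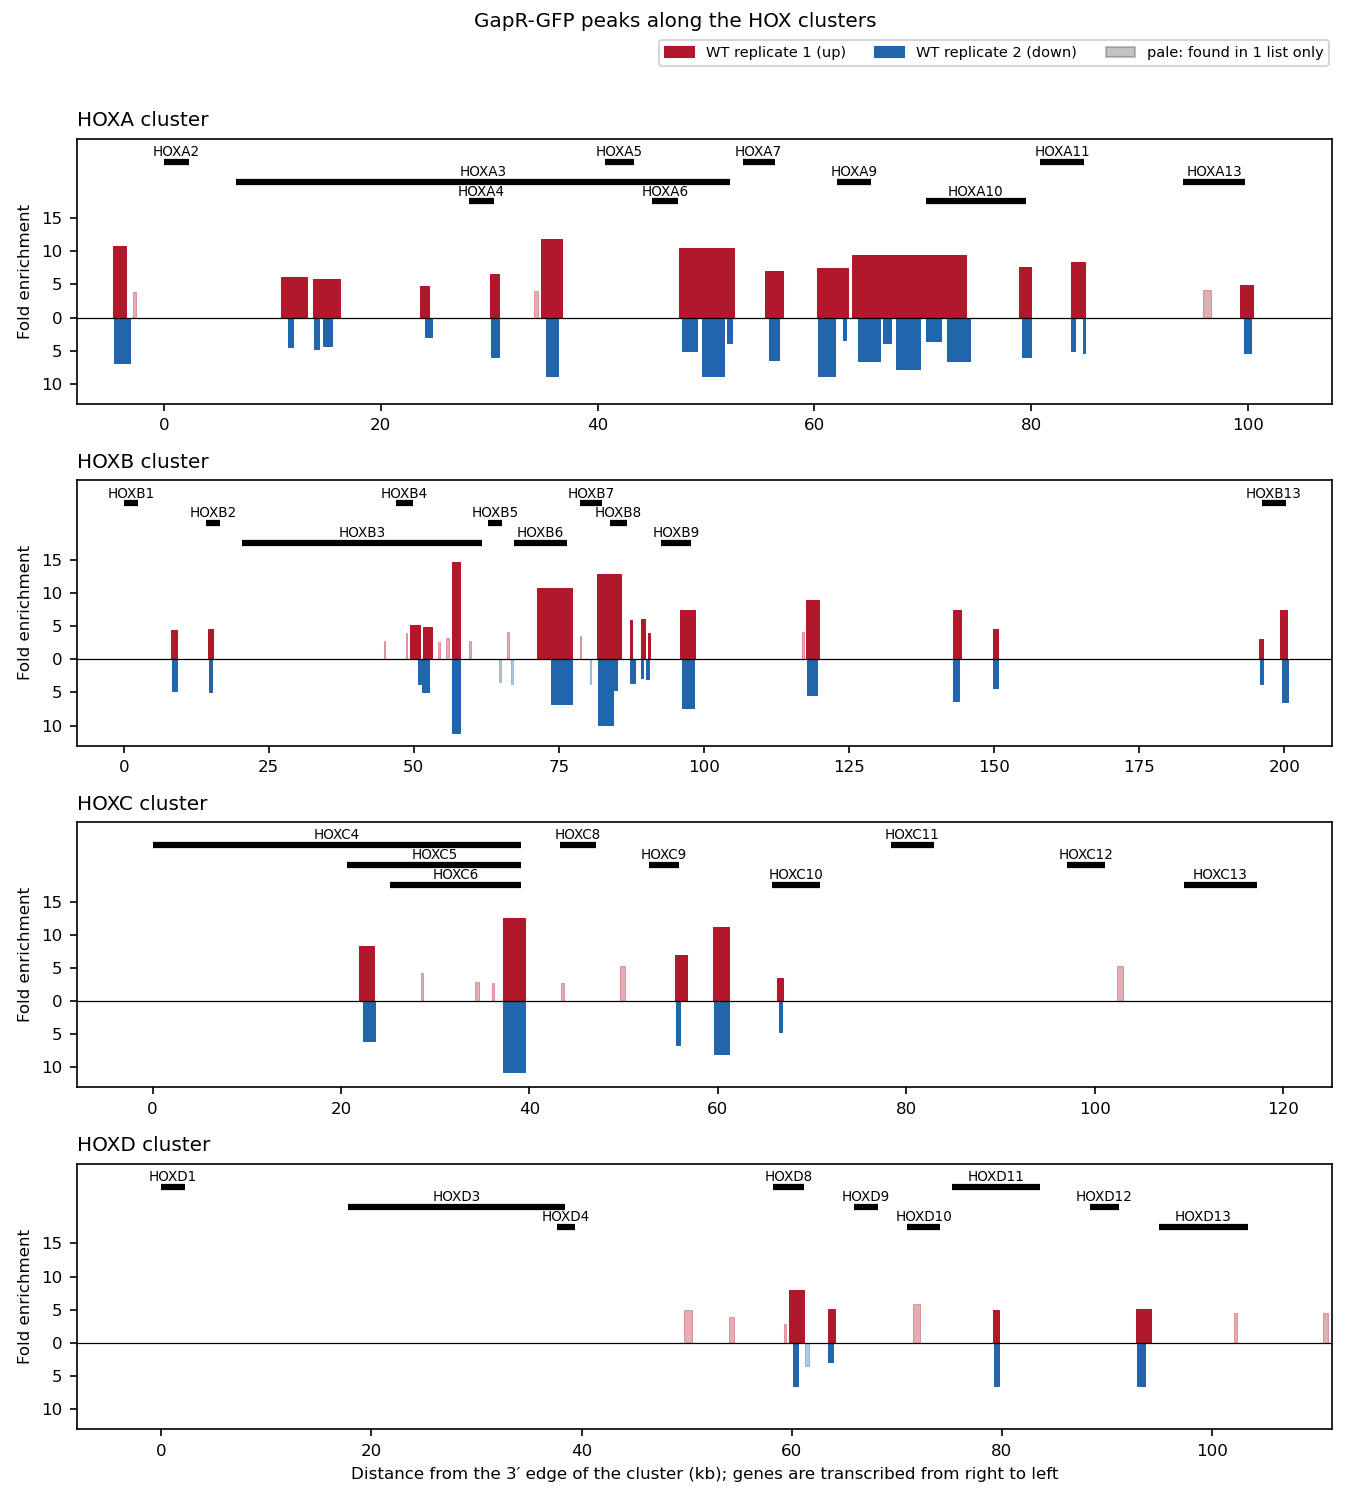
Peaks along each cluster, drawn to scale from its 3′ edge in kb, with fold enrichment of WT replicate 1 upward and of WT replicate 2 downward on a linear axis. Bar width is peak length, pale bars are peaks found in 1 list only, and black lines are genes. Peaks fill much of cluster A and the HOXB6 to HOXB9 stretch of cluster B, while the stretches from HOXC11 to HOXC13 and from HOXD1 to HOXD4 hold no shared peak.

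The strength of a peak is given as the authors' fold enrichment, which is the WT pileup at the summit over the local control level, with 1 added to each. Peaks were called where WT exceeded that level, so a pileup above MT is a condition of being listed. The pileup is the number of WT fragments over the summit base. Over the 28 genes, the highest fold per gene had a median of 9.41 (WT replicate 1) and 7.14 (WT replicate 2). For all protein-coding genes with a shared summit the medians were 7.95 and 5.97. Of the 28 genes, 17 lay above that median in WT replicate 1, and in WT replicate 2 it was 21 genes. The HOX values spread more widely in WT replicate 1, with quartiles of 5.18 and 11.8, against 6.27 and 9.91 for all protein-coding genes. In WT replicate 2 the quartiles were 6.28 and 8.77 for HOX genes and 4.87 and 7.51 for all protein-coding genes.

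**Figure D3:**
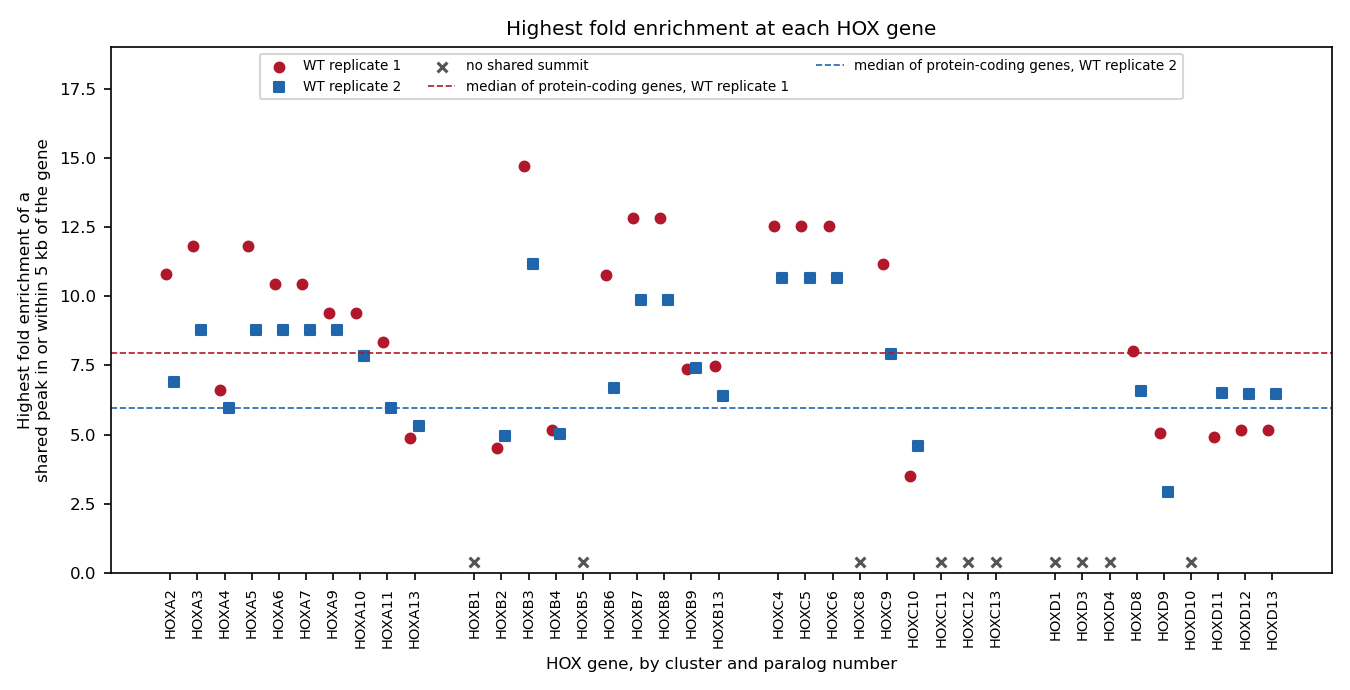
Highest fold enrichment of a shared peak in or within 5 kb of each of the 38 HOX genes, for WT replicate 1 (circles) and WT replicate 2 (squares), with crosses for genes that had no shared summit. Dashed lines are the medians of all protein-coding genes with a shared summit, 7.95 in WT replicate 1 and 5.97 in WT replicate 2. HOXB3 stands highest in both libraries, and 8 of the 10 crosses are in clusters C and D.

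Neighbouring genes often shared their strongest peak. Of the 34 shared peaks, 15 were counted for 1 gene and 19 for several, at most for 3, so the members' values were not independent. The members are therefore described peak by peak, with exact Poisson 95% intervals of the pileup that cover counting error only.

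HOXB3, an anterior gene with roles in the hindbrain and pharyngeal region, had the highest fold in both libraries. Its peak, inside the gene at chr17:48585111-48586520, reached a pileup of 48 fragments (interval 35.4 to 63.6) in WT replicate 1 and 43 (31.1 to 57.9) in WT replicate 2. The fold was 14.7 and 11.2, with −log10 q of 40.9 and 30.0. The MT level computed from these values was 2.33 and 2.94 fragments. The intervals of the WT libraries overlapped each other. HOXB3 also held 2 weaker shared peaks near HOXB4, with folds up to 5.18 in WT replicate 1 and 5.01 in WT replicate 2, and these were the highest values of HOXB4, a gene known for expanding blood stem cells.

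HOXC4, HOXC5 and HOXC6 have the same outermost start in the gene table and shared 1 peak there. It spanned 2332 bp at chr12:54016537-54018868 and contains the whole printed HOXC4 promoter. The pileup was 35 fragments (24.4 to 48.7) in WT replicate 1 and 33 (22.7 to 46.3) in WT replicate 2, with a fold of 12.5 and 10.6 and −log10 q of 28.4 and 23.2. The MT level stood at the lowest value of each list, 1.87 and 2.20 fragments, which is the genome background of each WT library. A second shared peak, chr12:54032484-54034092, lay inside HOXC4 and HOXC5, with its summit 2241 bp past the end of HOXC6. It had a pileup of 38 and 30 fragments but a higher MT level of 3.73 and 4.11. This left a fold of 8.25 and 6.06. HOXC5 had the largest covered share of cluster C, 19.4% of its length (17.3% in WT replicate 2).

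HOXB7 and HOXB8, central genes expressed in trunk tissues, shared a peak of 4068 bp that covers the start of HOXB7, at chr17:48610145-48614212. Its pileup was 41 fragments in WT replicate 1 and 32 in WT replicate 2, over MT levels of 2.27 and 2.35. The fold was 12.8 and 9.85, with −log10 q of 32.7 and 21.3. Shared peaks covered 63.4% of HOXB8 with their extent in WT replicate 1, the largest share in cluster B. Peaks of WT replicate 2 covered 30.3% of it, below the 30.8% of HOXB9. HOXB6, next to HOXB7, lay under a peak of 6093 bp, chr17:48599738-48605830, that covered 56.8% of the gene (29.9% in WT replicate 2). This peak had the highest pileup of all HOX peaks in WT replicate 1, 55 fragments (41.4 to 71.6), with 41 (29.4 to 55.6) in WT replicate 2. No shared HOX peak had a higher MT level than the 4.20 and 5.29 found here, and the fold was 10.8 and 6.68, with −log10 q of 37.1 and 18.9.

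HOXA3, which acts in the third pharyngeal arch and its organs, and HOXA5, which acts in the lung, shared the strongest peak of cluster A. It lay inside HOXA3 at chr7:27135087-27137101, with a pileup of 44 fragments (32.0 to 59.1) in WT replicate 1 and 49 (36.3 to 64.8) in WT replicate 2. The fold was 11.8 and 8.77, over MT levels of 2.81 and 4.70, and −log10 q was 32.6 and 28.0. HOXA3 held 7 shared summits over its 45574 bp, the most of any member, and its outer start was under the next peak. That peak, chr7:27147814-27152955, spans 5142 bp between HOXA6 and HOXA7 and covers the printed HOXA3 promoter. It had a pileup of 29 fragments in WT replicate 1 and 27 in WT replicate 2, at the lowest MT level of both lists, with a fold of 10.5 and 8.76 and −log10 q of 21.4 and 16.8. In WT replicate 2 the same stretch was broken into 3 peaks.

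HOXA9 and HOXA10, posterior genes active in blood progenitors and, for HOXA10, in the uterus, lay along the longest HOX peak. It ran over 10588 bp, chr7:27163785-27174372, and ranked 11th by length among the 81404 peaks of WT replicate 1. It overlapped 5 peaks of WT replicate 2, so it was a domain in 1 library and a row of shorter peaks in the other. At its summit the pileup was 26 fragments (17.0 to 38.1) in WT replicate 1, and the strongest of the 5 peaks in WT replicate 2 reached 24 (15.4 to 35.7). The fold was 9.41 and 7.82, with −log10 q of 18.0 and 13.9, and the MT level was at the lowest of each list. With the neighbouring peak chr7:27160622-27163449 it put 89.2% of HOXA9 under shared peaks in WT replicate 1, the largest share of any member, and 44.5% under peaks of WT replicate 2. That neighbouring peak gave HOXA9 its highest fold in WT replicate 2, 8.76, against 7.51 in WT replicate 1.

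HOXC9, a thoracic gene, took its highest fold from a peak that lay 4681 bp before its start, chr12:53994816-53996499, with pileups of 31 and 25 fragments. The fold was 11.1 and 7.91, and −log10 q was 23.7 and 14.5. HOXA2, a gene of the hindbrain and the branchial arches, had 1 shared summit, with a fold of 10.8 and 6.88. It lay 4048 bp from the gene and outside the span of the listed members, so HOXA2's value, the 10 of 10 members in cluster A and the 2 of 2 of paralog 2 rest on a peak beyond the described part of the cluster. Nearest to the 5 kb limit from inside were the summits counted for HOXB7 at 4885 bp (fold 5.93 and 3.54), HOXA5 at 4833 bp (11.8 and 8.77) and HOXC9 at 4681 bp. The nearest shared peak beyond the limit of all members lay between HOXB1 and HOXB2, 5342 bp from HOXB2, with a fold of 4.48 in WT replicate 1. Some summits counted for 1 member also lay just beyond the limit of another. The peak of HOXC4, HOXC5 and HOXC6 (12.5 and 10.6) had its summit at base 54017781, just over 5 kb past the end of HOXC8 at base 54012769. The summit of the HOXC9 peak (11.1 and 7.91) likewise lay just over 5 kb past the end of HOXC10. HOXD8, with the highest fold of cluster D, had a peak over its first part, chr2:176129754-176131159, with pileups of 22 and 20 fragments. The fold was 8.01 and 6.57, −log10 q was 13.8 and 10.1, and the MT level was at the lowest of each list. Shared peaks covered 47.0% of HOXD8 (16.7% in WT replicate 2), the largest share in cluster D.

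Of the members with a shared summit, those not yet described ranged widely. HOXA4, HOXA11, HOXA13, HOXB2, HOXB9, HOXB13, HOXC10, HOXD9, HOXD11, HOXD12 and HOXD13 had highest folds of 3.52 to 8.36 in WT replicate 1 and 2.93 to 7.39 in WT replicate 2. HOXB13, a gene of the hindgut and prostate, reached 7.47 and 6.39 from a peak over its start. HOXA13, which acts in limb and genital tract, reached 4.88 and 5.32, also at its start. HOXD12 and HOXD13, which shape the digits, shared a peak between them whose fold was higher in WT replicate 2 (6.45) than in WT replicate 1 (5.16). The lowest value in WT replicate 1 belonged to HOXC10 (3.52, against 4.59 in WT replicate 2), and the lowest in WT replicate 2 to HOXD9 (2.93, against 5.06 in WT replicate 1).

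Shared summits were absent from 10 members. HOXB1, which patterns the hindbrain, HOXC11, HOXC13, a gene of hair and nail, HOXD1, HOXD3 and HOXD4 had no summit of either library in the window. HOXB5 had 2 summits of WT replicate 1 and 2 of WT replicate 2, none of them shared, with folds up to 4.18 and 3.76. HOXC8 had 2 summits and HOXC12 had 1, all of WT replicate 1 only and with folds up to 5.23. HOXD10 had 1 summit of WT replicate 1 with a fold of 5.92, the highest among the HOX peaks found in that library only. From HOXD1 to HOXD4 no peak of any kind was present, and the nearest shared summit lay 20928 bp from the start of HOXD4 and 58046 bp from that of HOXD1.

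Peaks found in 1 library only were weak. Around the HOX genes lay 54 peaks of WT replicate 1 and 48 of WT replicate 2. Of these, 63.0% and 91.7% were found in the other list, against 39.1% and 84.5% of all peaks. The 20 peaks of WT replicate 1 only had folds of 2.58 to 5.92 with a median of 3.83, and the 4 of WT replicate 2 only had folds of 3.44 to 3.76.

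The shared HOX peaks were longer than most, with a median of 1408 bp against 1067 bp for all shared peaks. Of the 34, 10 were over 2 kb (29.4%), against 16.3% of all shared peaks. Their pileups ran from 8 to 55 fragments in WT replicate 1 with a median of 21, and from 11 to 49 in WT replicate 2 with a median of 20. At 10 of the 34 the MT level was at its lowest in both lists, within 1%, against 27.1% of all shared peaks. The computed MT level at the others reached 4.20 in WT replicate 1 and 5.29 in WT replicate 2.

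**Figure D4:**
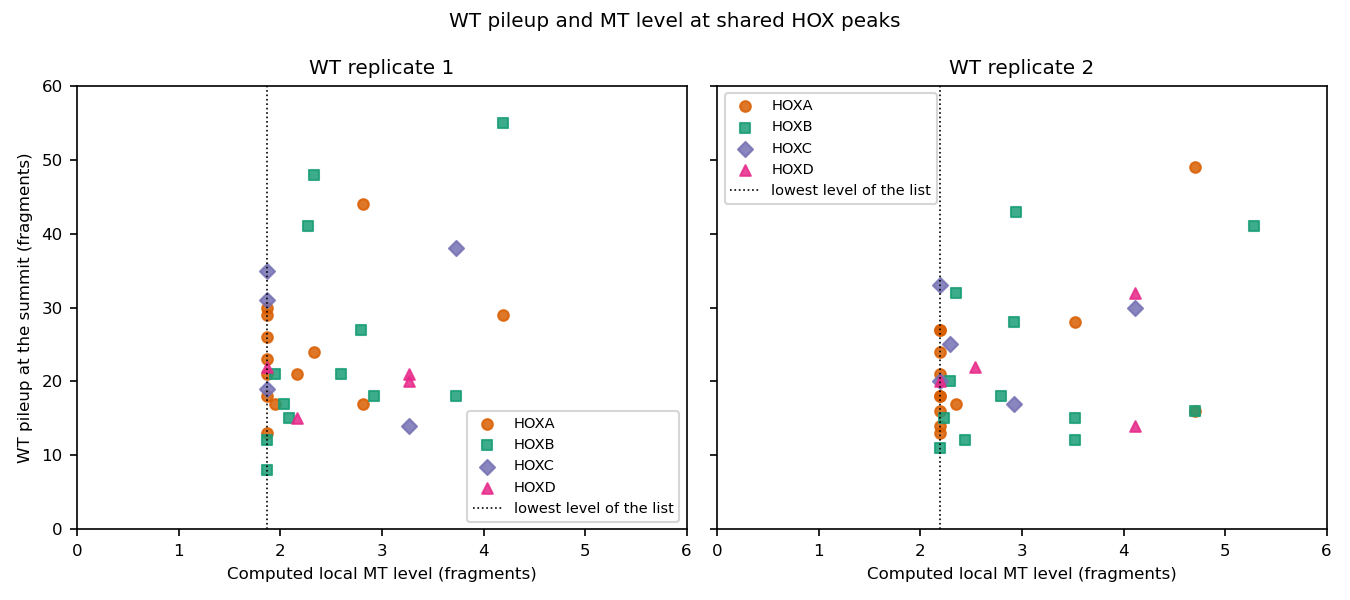
WT pileup at the summit against the computed local MT level, both in fragments, for the 34 shared HOX peaks in WT replicate 1 (left) and WT replicate 2 (right), with a symbol for each cluster and a dotted line at the lowest MT level of the list (1.87 and 2.20). Pileups run from 8 to 55 fragments and no MT level exceeds 5.29. Many peaks of cluster A stand on the dotted line.

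By place, 13 of the 34 shared summits lay within 1 kb of the start of a HOX gene and 3 within 1 kb of an end. A further 10 lay inside a gene. The other 8 lay between genes or, for the peak of HOXA2, beyond the listed members. Median folds were alike at starts, inside genes and at these 8, at 7.37, 7.18 and 6.81 in WT replicate 1. In WT replicate 2 they were 6.39, 6.28 and 6.67. The 3 summits at gene ends had lower medians, 3.52 and 4.59. The same split by place was not computed over all shared summits. The outermost start was under a shared peak for 16 of 38 members, against 44.7% of protein-coding genes with a known strand, a share close to the background. Cluster A had 7 such starts, cluster B 5, cluster C 4 and cluster D none. The 3 genes at the shared start of cluster C account for 3 of its 4.

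Along the clusters, shared summits were found at 4 of 7 anterior, 12 of 15 central and 12 of 16 posterior members. The highest folds were similar for anterior and central genes, with medians of 11.3 and 7.83 at anterior genes and of 11.3 and 8.77 at central genes. Posterior genes had medians of 6.27 and 6.45. Their median was the lowest of the classes with a value in each of the 4 clusters and in both libraries. It was 8.88 and 6.88 in cluster A, 7.42 and 6.89 in B, 7.33 and 6.25 in C, and 5.11 and 6.45 in D. These medians rest on few peaks, some of them counted for several genes. In cluster C the central value came from 1 peak counted for 3 genes, and the posterior value from HOXC9 and HOXC10 only. In cluster D the central class is HOXD8 alone, at 8.01 and 6.57, close to the posterior value in WT replicate 2. Covered length did not follow this order of the classes. In cluster A posterior members had the largest covered share, a median of 38.5%, and in cluster D the anterior members held nothing. Paralogs did not behave alike either. Paralogs 2, 6, 7 and 9 had a shared summit at all of their listed members, paralog 1 at 0 of 2, and paralog 12 at 1 of 2.

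The promoter table held 26 distinct windows of 20 members, and a shared peak overlapped 13 of them with its extent in WT replicate 1. The same share over all promoters of the table was not computed. By a different measure, the outermost start was under a shared peak for 44.7% of protein-coding genes with a known strand. HOXA genes gave most of the 13 windows with a peak. The others were the common HOXC4 and HOXC5 window, and that of HOXD8, which touched the first base of its peak. In WT replicate 2 no peak overlapped the windows of HOXA6 and of HOXA3 at chr7:27113793-27114092. The HOXD8 window met only a peak found in WT replicate 2 alone. CpG counts had a median of 25 in the windows with a peak, 15 in the other 13 and 14 in all 35116 promoters of the table. Several windows belong to the same gene, most of all HOXA3. Cluster B is represented by HOXB1 alone and cluster C by the common HOXC4 and HOXC5 window. HOXD genes gave most of the windows without a peak, so the windows with and without a peak also differ in cluster.

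Short sequence motifs were searched on both strands of the same windows, each counted on its own even where it overlapped another. TATAAA, the core of the TATA box, was in 4 of the 13 windows with a peak, in 1 of the other 13 and in 11.5% of all promoters. TGATNNAT, a form of the site bound by HOX proteins with their PBX partners, was in 0 of 13, in 3 of the other 13 and in 7.40% of all promoters. CNAGNNGGC, part of the CTCF site, was in 6 of 13, in 2 of the other 13 and in 24.6% of all promoters. The printed HOXA3 and HOXD13 windows each hold TATAAA, HOXB1 holds TGATNNAT, and none of the 4 printed windows holds CNAGNNGGC.

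The clusters also hold microRNA genes, which repress HOX messages among other targets. The mature forms shown are those of the microRNA genes under or next to peaks, with their relatives of the same seed. They are from RefSeq, 5′ to 3′, with the seed (bases 2 to 8) in capitals.
miR-196b-5p: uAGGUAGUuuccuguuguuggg
miR-196a-5p: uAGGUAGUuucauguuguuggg
miR-10a-5p: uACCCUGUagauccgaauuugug
miR-615-3p: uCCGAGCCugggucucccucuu

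The miR-196 forms have the same seed, and of their genes MIR196B was the one under peaks. MIR196B (minus strand, hairpin chr7:27169480-27169563) lay whole within the long peak between HOXA9 and HOXA10 in WT replicate 1 and under a peak of WT replicate 2. MIR196A2, between HOXC9 and HOXC10, was 2016 bp from the nearest peak of WT replicate 1 and 2222 bp from that of WT replicate 2. MIR196A1, beyond HOXB9, was 5492 and 5643 bp away. MIR10A, beside HOXB4, lay in a gap between peaks, 149 bp from the nearest in WT replicate 1 and 44 bp in WT replicate 2. MIR615, inside HOXC5, was under a peak of WT replicate 1 and 239 bp from one of WT replicate 2. MIR10B, next to HOXD4, was 9176 and 19528 bp from any peak.

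Of 6 microRNA genes, 4 (66.7%) had a shared summit within 5 kb. Of 18 long noncoding RNA genes of the clusters, 13 (72.2%) had one. Both shares stood near the 66.6% of all protein-coding genes. HOXB-AS3 reached a fold of 12.8 and 9.85, and HOXA-AS3 reached 11.8 and 8.77. HOXA10-AS lay whole under the long peak. HOTTIP, at the 5′ edge of cluster A, reached 4.88 and 5.32. HOTAIR, which reaches from between HOXC12 and HOXC11 into HOXC11, had no summit of either library. Some of these noncoding genes overlap HOX genes and others lie beside them. Where they had a shared summit, their highest folds came from peaks also counted for HOX genes. The libraries carry no strand, so the values of both cannot be told apart.

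Of 14 genes listed as neighbours of the clusters, 12 (85.7%) had a shared summit, against 66.6% of all protein-coding genes. PRAC1 and PRAC2, among the 12, lie inside the span of cluster B and take their values from peaks counted for HOXB13. The highest in WT replicate 1 were LNPK beyond cluster D (fold 12.2 in WT replicate 1 and 6.85 in WT replicate 2) and MTX2 on its other side (11.4 and 7.35). In WT replicate 2 the highest was HIBADH (8.69 and 8.45), beyond cluster A. EVX1 and EVX2, homeobox genes that border clusters A and D at the posterior edge, had no shared summit. Of 9 genes for TALE homeodomain cofactors, which bind DNA together with HOX proteins, 7 (77.8%) had a shared summit, and PBX3 and MEIS3 had the highest folds in WT replicate 1, 10.5 each, with 5.63 and 5.59 in WT replicate 2. MEIS1 had no summit over its 138745 bp. Most of these genes are longer than the HOX genes, so their counts are not comparable by length.

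Genes for the regulators of the clusters were counted likewise, against the same 66.6% of all protein-coding genes, and most of them are also longer than HOX genes. Of 18 Polycomb genes, 16 (88.9%) had a shared summit. RING1, for a histone H2A ubiquitin ligase, reached 12.1 in WT replicate 1 and 8.06 in WT replicate 2. CBX7 and RBBP7 had no summit. All 9 of the listed Trithorax genes had a shared summit, among them ASH2L (11.5 and 7.16) and RBBP5 (10.8 and 8.13). Among the ParaHox genes, the sister homeobox genes of the HOX clusters, 2 of 6 had one. These were CDX2, an intestinal regulator, with a fold of 6.79 and 5.01, and PDX1, with 4.23 and 5.36. Beside them, 32 of 53 clustered protocadherin genes (60.4%), many of which overlap each other, and 51 of 69 replication-dependent histone genes (73.9%) had a shared summit.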

How the data were processed

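The members, lists and comparisons were chosen with earlier results of these data known, and 1 HOX gene is not reported here, so a peak near it can be counted for its neighbour. Bowtie2 2.3.4, ChIPseeker 1.28.3, MACS2 2.1.2 and hg38 are given by the submitters' processing notes. Per the file headers, the authors called narrow peaks on paired-end fragments of each WT library against MT replicate 1 with MACS2, with peaks of at least 200 bp, a genome size set to 2.70e+09, a q-value cutoff of 0.05 and at most 2 fragments kept per position. No source used here gives a blacklist. The deposited pileup is a signal (fragment coverage), the deposited fold enrichment is a ratio, and the deposited −log10 p and −log10 q values come from the Poisson test of MACS2. Every pileup of both lists was whole, and WT was taken as unscaled.

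From these, the local MT level was computed as (pileup + 1) / fold − 1, and its lowest value in a list is the genome background, the floor set for the control. Shared peaks, windows of 5 kb and covered length were computed with Python 3.11.15, pandas 2.3.3 and SciPy 1.17.1, after a test on simulated peaks. Gene boundaries came from RefSeq, where all listed symbols matched. Strand came from the promoter table, which matched 20 of 38 members, and was extended to the other members of the cluster. No genome sequence was used, so exons and UTRs were not analysed here. Named in full are the members with the best worse rank of fold over both lists, 12 with ties kept, and the member of each cluster with the largest covered share. The settings varied were the overlap, the window, the peak threshold, the MT level, the summit used and the library.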

Additional observations from a re-analysis of the deposited data

How the results depend on the processing

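Over the 36 values computed under alternatives, 27 stayed close to the reported value, that is within 1.5 times for a count of genes or promoters and within the SD between the libraries for a median fold (1.60) or a covered share (3.99 percentage points). The count of 28 HOX genes became 16 with summits inside the gene span and 15 with peaks at the lowest MT level in both lists, and lay between 21 and 32 under the others. The median fold of WT replicate 1 was 7.66 with an overlap of 50% of both peaks and 7.47 with a window of 1 kb, against 9.41. That of WT replicate 2 was 8.76 with a window of 10 kb, against 7.14. The covered share of 13.5% became 7.57% with the 50% overlap, 4.58% at the lowest MT level and 9.22% with the peaks of WT replicate 2. Leaving out a WT library gave 9.44% to 15.1%, 29 to 32 genes, and a median fold of 8.19 for WT replicate 1 by itself and of 6.88 for WT replicate 2. The cause of these shifts was not tested beyond the smaller set of peaks or window that each setting has by construction. No paired analysis was possible because both lists were called against the same MT library and no result comes from a test. Depth limits weak peaks, since HOX peaks of as few as 7 fragments were called, and pileup intervals cover counting error only.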
